A study of Mus musculus with 6 samples.

Results

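Genes of glycolysis, glucose entry and lactate handling were followed in fetal mouse hearts. The set holds 31 genes, taken by symbol from the 31529 genes of the deposited table: 4 glucose transporters, the enzymes from hexokinase to lactate dehydrogenase with their paralogs, phosphoglucomutase, the regulators of fructose 2,6-bisphosphate and the lactate exporter Slc16a3. The 2 groups were hearts at embryonic day 18.5 (E18.5) and hearts at embryonic day 16.5 (E16.5), with 3 libraries each. All came from wild-type mice of the outbred ICR stock, with no treatment or modified allele in the labels, and the libraries were made from whole-heart polyadenylated RNA. The series is about metabolism in fetal organs late in gestation. The design text calls the 3 libraries of a stage biological replicates. The number of hearts and litters behind a library is not stated in the labels. The p-values therefore set a stage difference against the spread between these libraries, which may differ from that between hearts or litters.

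Glycolysis splits glucose into pyruvate in the cytosol and yields ATP without oxygen. The fetal heart lives in a low-oxygen circulation and is known to draw much of its ATP from glucose and lactate, with a shift to fatty acids after birth. Many steps have paralogs with different tissue patterns: Slc2a1 (GLUT1) is the basal glucose transporter and Slc2a4 (GLUT4) the insulin-responsive one, Hk1 is the widely used hexokinase and Hk2 the form of insulin-sensitive tissues, and Eno3 and Pgam2 are the muscle forms of enolase and phosphoglycerate mutase. The lactate dehydrogenase subunit encoded by Ldhb is typical of heart, and the one encoded by Ldha of skeletal muscle.

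The estimated counts summed to between 61443414 and 71510191 in the E18.5 libraries and to between 67082123 and 77237333 in the E16.5 libraries. Genes of the mitochondrial genome took 33.5%, 26.7% and 25.2% of the counts in E18.5 replicates 1, 2 and 3, and 41.4%, 19.9% and 35.0% in E16.5 replicates 1, 2 and 3. The 31 genes together took 0.524%, 0.638% and 0.686% in E18.5 and 0.415%, 0.723% and 0.436% in E16.5. Their summed share was thus lowest in the 3 libraries with a mitochondrial share above 30%, which are E18.5 replicate 1 and E16.5 replicates 1 and 3. Both shares are of all counts, mitochondrial ones included. A high mitochondrial share therefore lowers the other by construction, and this relation is in part built in. E16.5 replicate 2 stood apart from the other libraries of its stage in both shares. The cardiomyocyte marker list was abundant in all libraries, with 7 of 7 genes present and a summed level of 32710 to 39581 CPM in E18.5 and 28223 to 36271 CPM in E16.5. Levels in CPM come from the estimated counts after TMM scaling, which makes libraries of different size comparable. Because this was whole tissue, fewer cells of a type and less RNA per cell cannot be told apart for any gene below.

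All 31 genes passed the filter on low counts. None of them passed the test between stages: edgeR's quasi-likelihood test called 0 of 31 at a Benjamini-Hochberg adjusted p under 0.05, with adjusted p-values of 0.282 to 0.966, against 30 of 19959 genes tested (0.15%). DESeq2 called Tigar alone among the 31, and limma on FPKM called none of them. At an unadjusted p under 0.05, 3 of the 31 were higher at E18.5 (Tigar, Eno2 and Pfkfb3), where 4.83% of all genes tested were, and 0 were lower, where 4.7% of all genes were. The libraries of the stages did not overlap for 5 of the 31 in the higher direction (Tigar, Eno2, Pfkfb3, Slc2a4 and Pgam2), against 8.45% of all genes. They did not overlap for 1 in the lower direction (Slc2a3), against 8.02% of all genes. The log2 change, E18.5 over E16.5, was positive for 22 of the 31 genes, where 49.8% of all genes were positive. Its median was 0.19 over the 31 genes and -0.0019 over all genes tested. The standard errors ran from 0.13 to 0.47 with a median of 0.18, so most of the changes were of about the size of their error. The plot of changes in pathway order shows the widest bars at Tpi1, Pgk1 and Ldha.

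**Figure D1:**
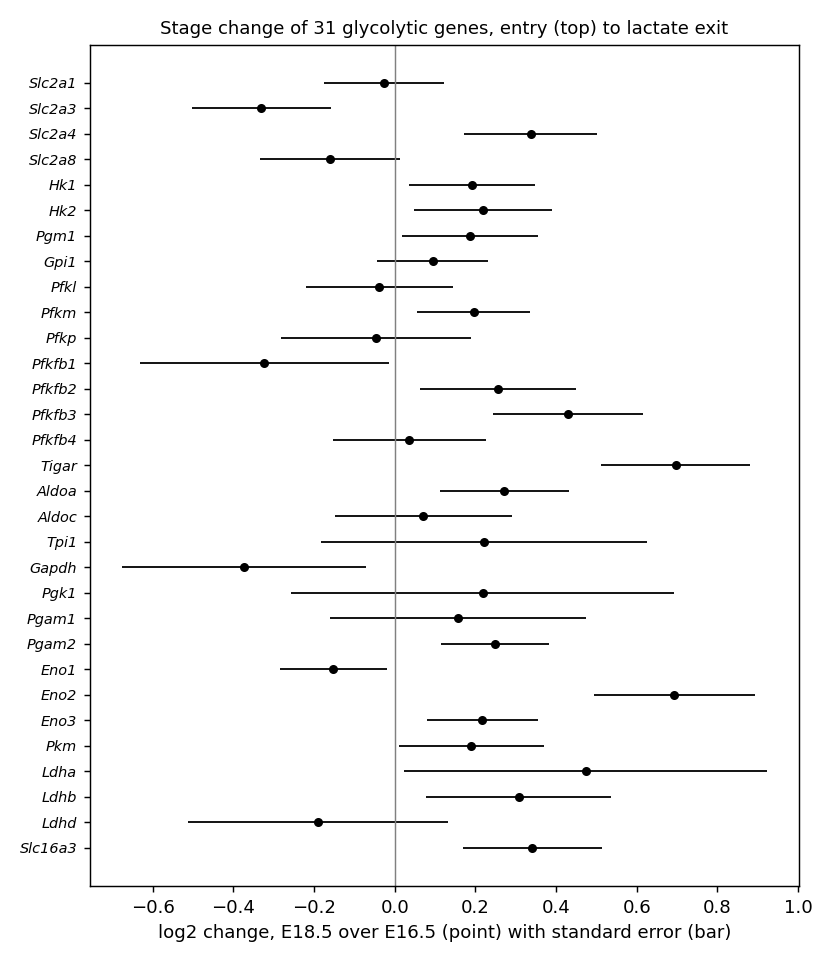
Log2 change of each of the 31 genes, E18.5 over E16.5 (point), with its standard error (bar), ordered from glucose entry at the top to lactate exit at the bottom. The changes lie between -0.37 (Gapdh) and 0.70 (Tigar), and none passed an adjusted p of 0.05.

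At the point of glucose entry, Slc2a1 and Slc2a4 were the most abundant of the 4 transporters. Slc2a1 (chr4:119108711-119137983, GRCm38, plus strand) had 83.9, 79.7 and 98.5 CPM in E18.5 hearts and 102, 83.7 and 81.0 CPM in E16.5 hearts, fully interleaved, with a log2 change of -0.03 ± 0.15 (SE). Slc2a4 (chr11:69942539-69948188, minus strand) had 85.4, 64.6 and 74.1 CPM in E18.5 hearts and 64.1, 48.8 and 64.4 CPM in E16.5 hearts. Every E18.5 library lay above every E16.5 library, but the nearest pair was almost equal, and the log2 change of 0.34 ± 0.16 had an adjusted p of 0.553. Slc2a3 (GLUT3), a high-affinity transporter best known from neurons and placenta, was low, with 9.26, 8.59 and 8.91 CPM in E18.5 hearts and 12.1, 12.3 and 9.26 CPM in E16.5 hearts. The nearest Slc2a3 libraries of the stages were nearly equal (log2 change -0.33 ± 0.17, adjusted p = 0.573). Slc2a8 (GLUT8), a transporter of internal membranes, averaged 16.7 ± 2.24 CPM in E18.5 and 18.7 ± 2.75 CPM in E16.5 hearts (SD, n = 3 each).

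Per transcript length, in FPKM, Slc2a1 made up 43.1%, 48.5% and 50.2% of the summed level of the 4 transporters in E18.5 hearts and 52.5%, 53.8% and 46.9% in E16.5 hearts. Slc2a4 made up 44.2%, 39.6% and 38.0% in E18.5 hearts and 33.2%, 31.6% and 37.6% in E16.5 hearts. The Slc2a4 share was higher in every E18.5 library, by 6.47 percentage points in the mean, though E18.5 replicate 3 and E16.5 replicate 3 were nearly equal. Slc2a3 and Slc2a8 had smaller shares in every E18.5 library, at means of 2.34% and 9.82% in E18.5 against 3.14% and 11.7% in E16.5. In each of these 3 cases the exact two-sided permutation test gave p = 0.1, the smallest that 3 libraries against 3 allow, and 0.3 after adjustment over the 18 paralog shares compared.

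Glucose is trapped in the cell by hexokinase. Hk1 (chr10:62268855-62379908, minus strand) had 205, 201 and 204 CPM in E18.5 hearts and 150.3, 212 and 171 CPM in E16.5 hearts (log2 change 0.19 ± 0.16, adjusted p = 0.716). The E18.5 libraries were nearly identical and lay inside the range of the E16.5 libraries. Hk2 (chr6:82725025-82774454, minus strand) averaged 61.5 ± 11.6 CPM in E18.5 and 52.8 ± 6.19 CPM in E16.5 hearts (SD, n = 3 each). Hk1 held 69.9 ± 4.22% of the FPKM of both in E18.5 and 70.0 ± 2.58% in E16.5 hearts. The difference of -0.10 percentage points was far within the spread of either stage (exact permutation p = 0.9). Pgm1, phosphoglucomutase, which links glucose 6-phosphate with glycogen, averaged 57.6 ± 2.94 CPM in E18.5 and 50.6 ± 11.4 CPM in E16.5 hearts. Gpi1, glucose 6-phosphate isomerase, was abundant and had the narrowest range over libraries of the 31 genes, 610.4 to 686 CPM in E18.5 and 574 to 647 CPM in E16.5. Its log2 change was 0.09 ± 0.14.

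Phosphofructokinase commits sugar to glycolysis. The muscle form Pfkm held the largest share of the family's FPKM in every library, 51.0%, 57.5% and 51.0% in E18.5 hearts and 41.6%, 54.8% and 50.9% in E16.5 hearts. The liver form Pfkl held 30.7 ± 3.97% in E18.5 and 33.5 ± 6.15% in E16.5, and the platelet form Pfkp 16.1 ± 1.02% in E18.5 and 17.4 ± 4.74% in E16.5 (SD, n = 3 each). The 3 shares overlapped between stages. In CPM, Pfkp ranged from 145 to 167 in E18.5 and from 101 to 201 in E16.5. The log2 change was -0.04 ± 0.18 for Pfkl and -0.05 ± 0.24 for Pfkp, and as for Slc2a1 its sign was the opposite when FPKM values were used in place of scaled counts.

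The bifunctional Pfkfb enzymes make and remove fructose 2,6-bisphosphate, the activator of phosphofructokinase, and Tigar removes it. Tigar (chr6:127085116-127109557, minus strand) had 9.41, 10.1 and 12.5 CPM in E18.5 hearts and 5.84, 6.85 and 7.05 CPM in E16.5 hearts. Every E18.5 library lay above every E16.5 library. The fold was 1.62 (log2 change 0.70 ± 0.18). Its adjusted p was 0.282 with edgeR and 0.0485 with DESeq2, so the call depended on the test. Across the leave-one-out fits its log2 change stayed between 0.57 and 0.77.

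Pfkfb3, the form with the highest kinase activity, had 8.22, 9.71 and 9.49 CPM in E18.5 hearts and 7.88, 6.68 and 5.81 CPM in E16.5 hearts. The stages were separate but close (log2 change 0.43 ± 0.19, adjusted p = 0.519). Pfkfb2, the heart form, averaged 19.9 ± 4.35 CPM in E18.5 and 16.7 ± 1.80 CPM in E16.5, and Pfkfb4 averaged 10.9 ± 2.25 CPM in E18.5 and 10.6 ± 0.63 CPM in E16.5. Pfkfb1, the liver and skeletal muscle form, averaged 2.91 ± 0.50 CPM in E18.5 and 3.65 ± 1.25 CPM in E16.5. Per length, Pfkfb2 held 39.5% and Pfkfb4 32.6% of the family in E18.5 hearts, against 36.6% and 34.8% in E16.5 hearts. The Pfkfb3 share was 16.7%, 17.7% and 17.9% in E18.5 hearts and 15.2%, 15.3% and 12.3% in E16.5 hearts, without overlap (exact permutation p = 0.1, adjusted 0.3).

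Aldolase cleaves fructose 1,6-bisphosphate into trioses. By its own row, Aldoa had the highest mean of the 31 genes per length at both stages, 481 ± 85.8 FPKM in E18.5 and 378 ± 126 FPKM in E16.5 hearts (SD, n = 3 each). Pgam2, described below, was above it in the 3 libraries with a mitochondrial share above 30%. In CPM it had 1339, 1412 and 1616 in E18.5 hearts and 1149, 1354 and 1115 in E16.5 hearts, with the lowest E18.5 library below the highest E16.5 library (log2 change 0.27 ± 0.16, adjusted p = 0.618). Aldoa held between 99.3% and 99.6% of the aldolase FPKM in every library, and Aldoc, the brain form, the rest. The table lists the symbol Aldoa under a further Ensembl identifier with 34 to 89 counts per library, which was kept out of these values.

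The next enzymes separated the libraries in another way. Tpi1 (triose phosphate isomerase, chr6:124810586-124814296, minus strand) had 111, 188 and 179.7 CPM in E18.5 replicates 1, 2 and 3, and 91.9, 238 and 80.9 CPM in E16.5 replicates 1, 2 and 3. Pgk1 (phosphoglycerate kinase, chrX:106187100-106203699, plus strand), which makes the first ATP of the pathway, had 85.2, 145 and 127 CPM in E18.5 and 53.4, 196 and 58.1 CPM in E16.5. Pgam1 (chr19:41911923-41918660, plus strand), the widely used phosphoglycerate mutase, had 138, 180.4 and 179 CPM in E18.5 and 95.7, 236 and 114 CPM in E16.5. In all 3 genes E16.5 replicate 2 was the highest library of the 6, and E18.5 replicate 1 and E16.5 replicates 1 and 3 were the lowest.

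Ldha (chr7:46841475-46855627, plus strand), the pyruvate-to-lactate subunit, followed the same order of low and high libraries, with 139.8, 291 and 275 CPM in E18.5 and 102, 302 and 105 CPM in E16.5. The highest library was 3.66 times the lowest for Pgk1, 2.96 times for Ldha, 2.94 times for Tpi1 and 2.47 times for Pgam1. For 9175 genes with a mean of at least 10 CPM that ratio had a median of 1.49 and a 90th percentile of 2.19, and over the 31 genes its median was 1.52. The stage changes of these 4 genes were correspondingly uncertain: the log2 change was 0.47 ± 0.45 for Ldha, 0.22 ± 0.40 for Tpi1, 0.22 ± 0.47 for Pgk1 and 0.16 ± 0.32 for Pgam1. Without E16.5 replicate 2 they became 1.19, 0.89, 1.10 and 0.66, without E16.5 replicate 1 they became 0.20, -0.0080, -0.10 and -0.088, and without E16.5 replicate 3 they became 0.21, -0.056, -0.073 and -0.011. In the fit without E16.5 replicate 2, 13 of the 31 genes had an unadjusted p under 0.05 in either direction (41.9%), where 23.4% of all genes in that fit had one. None of the 31 had an adjusted p under 0.05 there (lowest 0.0518), while 371 genes were called over the whole table.

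The 3 libraries above a 30% mitochondrial share were also the 3 lowest libraries for 11 of the 31 genes, against 15.4% of all genes tested. These were Hk2, Pgm1, Pfkm, Aldoa, Aldoc, Tpi1, Pgk1, Pgam1, Pkm, Ldha and Ldhb. Within the libraries above 30%, Ldha had 139.8 CPM in the E18.5 library and 102 and 105 CPM in the E16.5 libraries. Within the libraries below 30%, it had 291 and 275 CPM in the E18.5 libraries and 302 CPM in the E16.5 library. With the mitochondrial share as a term in the fit, the log2 change was 0.29 for Ldha, 0.12 for Pgk1, 0.08 for Tpi1 and 0.04 for Pgam1, and 7 of the 31 genes (22.6%) had an unadjusted p under 0.05 in either direction, none adjusted, where 14.7% of all genes in that fit had one and 184 were called. Some marker lists split by the same libraries, and others did not. The skeletal muscle list had 7 of 8 genes in the table. It summed to 418, 622 and 616 CPM in E18.5 and to 238, 537 and 282 CPM in E16.5. Whole tissue does not tell which cells carried these genes, so the sum does not show that skeletal muscle cells were present. The erythroid list (8 of 9) summed to 8993, 16706 and 21107 CPM in E18.5 and to 9421, 23789 and 15493 CPM in E16.5. The skeletal muscle, erythroid and endothelial lists were lowest in the 3 libraries above 30%. The cardiomyocyte, macrophage, and neuron and Schwann cell lists went the other way and were highest there. The remaining lists overlapped between the libraries above and below 30%. The part of RNA quality or blood content in these library differences was not tested.

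**Figure D2:**
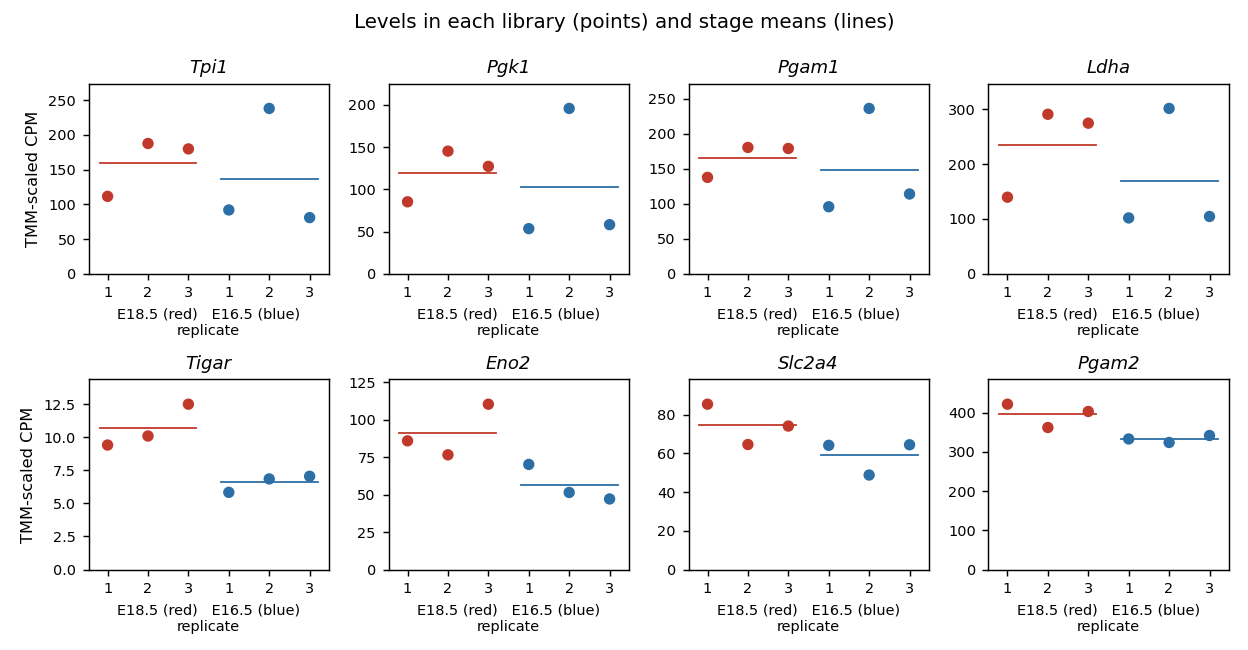
TMM-scaled CPM of 8 genes in each library (points; E18.5 replicates 1 to 3 in red on the left, E16.5 replicates 1 to 3 in blue on the right) with the mean of each stage (line). In the upper row E16.5 replicate 2 is the highest library and E16.5 replicates 1 and 3 are the lowest, whereas in the lower row the E18.5 points lie above the E16.5 points.

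The promoters of this group were compared with the core of the hypoxia response element, the site that hypoxia-inducible factors bind, since Pgk1, Ldha and other glycolytic genes are textbook targets. The sequences are 300-base RefSeq windows on GRCm38.p6, from 250 bases before to 50 bases after the listed start, and 29 of the 31 genes had one. The window of Hk1 lies 17940 bases from the principal start of the gene, those of Gapdh and Slc16a3 lie 693 and 586 bases from theirs, and all 3 hold a match counted below. The letters ACGTG were searched on both strands. They were present in 14 of the 29 windows (48.3%), and in 19.6% of all 32851 windows of the table. The longer E-box CACGTG, which contains the core on both strands, was in 3 of the 29 (10.3%) and in 7.15% of all windows. Each of the 29 genes entered with 1 window, the listed one nearest to its principal start. The full set holds every listed window, so the percentages compared come from unlike sets, which were not matched for base composition. Among the 4 genes that differed most between libraries, Pgk1 had 2 matches and Pgam1 had 1, while the windows of Tpi1 and Ldha held none. The windows of Pgk1 (chrX:106186850-106187149, plus strand) and Pgam1 (chr19:41911621-41911920, plus strand) are shown with the matches in capitals, those reading CACGT being matches on the other strand.
Pgk1: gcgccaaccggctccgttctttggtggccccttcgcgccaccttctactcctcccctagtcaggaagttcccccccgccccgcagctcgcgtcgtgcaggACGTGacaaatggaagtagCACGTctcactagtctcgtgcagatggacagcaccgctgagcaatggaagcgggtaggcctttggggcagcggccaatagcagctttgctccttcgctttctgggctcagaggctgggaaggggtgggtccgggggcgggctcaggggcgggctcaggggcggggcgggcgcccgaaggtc
Pgam1: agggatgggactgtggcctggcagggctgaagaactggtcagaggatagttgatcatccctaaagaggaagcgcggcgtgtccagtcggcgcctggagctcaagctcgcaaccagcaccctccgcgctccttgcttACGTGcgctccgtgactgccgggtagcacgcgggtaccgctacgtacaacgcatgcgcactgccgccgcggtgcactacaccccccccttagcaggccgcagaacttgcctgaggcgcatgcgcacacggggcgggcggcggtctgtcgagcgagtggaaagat
The matches are letters in a window and say nothing of binding in these hearts.

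Gapdh oxidises glyceraldehyde 3-phosphate and is often used as a reference gene. Its own row ran the other way from its neighbours in the pathway, unlike the sum with its copies given below. That row had 261, 188 and 169.6 CPM in E18.5 hearts and 372, 157 and 272 CPM in E16.5 hearts. It was highest in the 3 libraries where Tpi1, Pgk1 and Ldha were lowest. The log2 change of that row was -0.37 ± 0.30 (adjusted p = 0.714), and it was -0.067 without E16.5 replicate 1 and -0.64 without E16.5 replicate 2. Most counts of Gapdh-like sequence were not on that row. A search of the 31 coding sequences against the GENCODE M21 transcripts kept 85 other genes of the deposited table, where every gene has counts. All 85 had a stretch of at least 200 bases and 95% identity to the Gapdh coding sequence. They held 90.4%, 93.5% and 94.4% of the summed counts in E18.5 and 86.4%, 94.9% and 88.5% in E16.5.

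Most counts on the copies lay on those closest to Gapdh. The identical copies did not hold more than those with 1 difference, at a median of 48247 against 57440 counts per copy. Of all counts on the copies, 69.8% lay on the 7 copies with 1 base different over at least 999 aligned bases, 14.7% on the 3 identical copies (Gm7336, Gm12671 and Gm10359), 10.7% on the 7 copies with 2 to 5 differences, and 4.86% on the other 68 copies. The identical copies and Gapdh (chr6:125161715-125166467, minus strand) share all 1002 bases of the coding sequence. Gm13394 (chr2:28933610-28934609, minus strand) held the most counts, 279794 over the 6 libraries, and differed from Gapdh by A346C, where positions count from the A of the Gapdh start codon. Gm5559 (chr5:95861714-95862715, plus strand) held 194576 counts and differed by T385A. Gm12033 (chr11:20335012-20336013, minus strand) held 134661 counts and differed by T504C. The 61 bases around the last 2 differences are shown, coding positions 355 to 415 and 474 to 534, with the base that differs in capitals, since it is the only base of the coding sequence at which the copy differs.
Gapdh, positions 355 to 415: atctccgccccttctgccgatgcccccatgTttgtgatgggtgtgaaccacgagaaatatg
Gm5559: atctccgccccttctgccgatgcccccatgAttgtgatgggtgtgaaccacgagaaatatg
Gapdh, positions 474 to 534: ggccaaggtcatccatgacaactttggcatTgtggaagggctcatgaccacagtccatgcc
Gm12033: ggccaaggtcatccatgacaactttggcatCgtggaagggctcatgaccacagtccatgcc
Outside the capital the paired windows are the same, letter for letter.

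The copy Gapdh-ps15 is annotated on chromosome Y and differs from Gapdh at 5 bases. It had 3043, 3390 and 3319 counts in E18.5 and 2832, 4229 and 2835 counts in E16.5. In 3 of these libraries, E18.5 replicate 3 and E16.5 replicates 2 and 3, Xist stood at 965 to 1353 CPM. The summed Y-linked genes stood at no more than 1.96 CPM there, yet the Gapdh-ps15 row was as high as in the others. The libraries with high Xist were thus not evenly divided between the stages, and the part of sex in the stage changes was not tested. Added over Gapdh and its copies, the level was 2709, 2868 and 3008 CPM in E18.5 hearts and 2735, 3057 and 2368 CPM in E16.5 hearts. The sum varied far less between libraries than the Gapdh row, and its log2 change was 0.07 ± 0.16 (adjusted p = 0.902), of the opposite sign to that of the row. Neither value passed the test, and the row's value is uncertain.

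**Figure D3:**
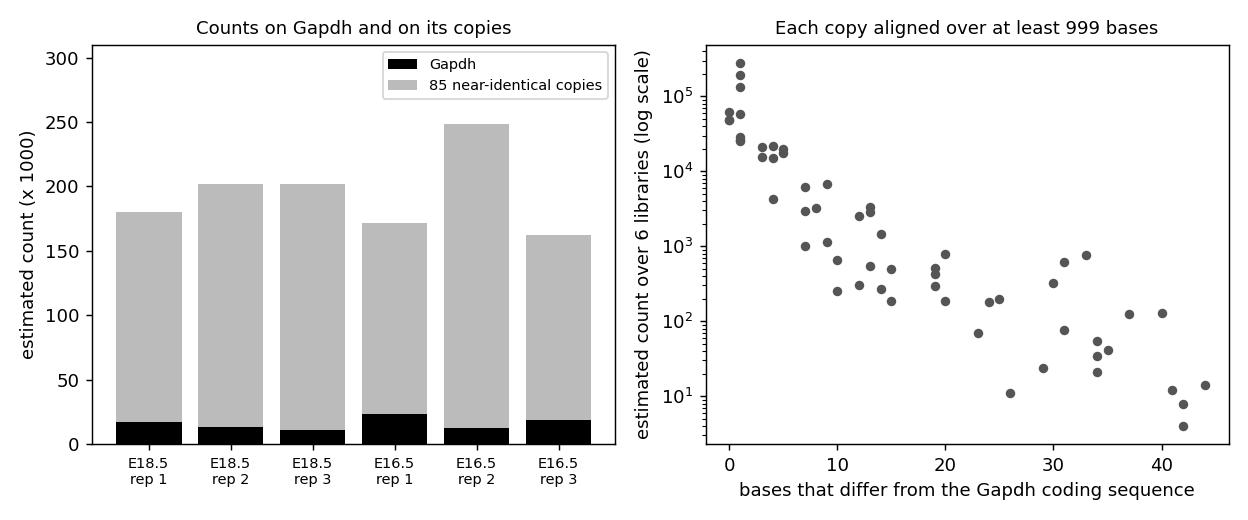
Left, estimated counts (axis in units of 1000) on Gapdh (black) and on its 85 near-identical copies (grey, stacked) in each library, where the copies hold 86.4% to 94.9% of each bar. Right, the summed estimated count of each of the 58 copies aligned over at least 999 bases (log scale) against the number of bases that differ from the Gapdh coding sequence, with the highest counts at 0 and 1 difference.

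Copies mattered less at most other steps. For Pgk1 the 3 copies held 1.51% to 2.73% of the summed counts, and for Pgam1 the copy Pgam1-ps2 held 2.75% to 4.20%. The copies of Gpi1, Pkm, Ldha, Tpi1 and Aldoa held at most 0.521% in any library. Ldhb-ps, a copy of Ldhb, was uneven, with 797, 1338 and 46 counts in E18.5 and 569, 51 and 37 counts in E16.5. It was high in the 3 libraries with low Xist and far lower in the 3 with high Xist. Summing copies with their genes moved the log2 change by less than its standard error for every gene with copies except Gapdh.

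Phosphoglycerate mutase was dominated by its muscle form. Pgam2 (chr11:5801640-5803733, minus strand) had the second highest mean of the 31 genes per length, 449 ± 33.6 FPKM in E18.5 and 356 ± 71.5 FPKM in E16.5 hearts. In CPM it had 422, 362 and 403 in E18.5 hearts and 333, 324 and 342 in E16.5 hearts. The stages did not overlap, and the difference was small (log2 change 0.25 ± 0.13, adjusted p = 0.586). Unlike Pgam1, it varied little between the libraries of a stage. The Pgam1 share of the family's FPKM was therefore uneven, at 12.1%, 17.4% and 15.8% in E18.5 and 10.9%, 23.6% and 12.4% in E16.5 (exact permutation p = 0.9).

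Among the enolases, which make phosphoenolpyruvate, Eno2 was the member with the largest stage difference. Eno2 (chr6:124760053-124769673, minus strand), known as the neuronal form, had 86.0, 76.6 and 110.4 CPM in E18.5 hearts and 70.2, 51.5 and 47.1 CPM in E16.5 hearts. Every E18.5 library lay above every E16.5 library, with a fold of 1.62 (log2 change 0.69 ± 0.20), an unadjusted p of 0.0076 and an adjusted p of 0.328 with edgeR. Its unadjusted p stayed under 0.05 in all 15 alternative settings, as did that of Tigar. In those settings 5.57% to 23.4% of all genes were under 0.05. They reuse the same libraries, so they are not independent support. The neuron and Schwann cell list, of which 7 of 7 genes were in the table, summed to 24.5 to 33.3 CPM in E18.5 and 26.3 to 31.6 CPM in E16.5, overlapping between the stages, and its part in the level of Eno2 was not tested. Eno3, the muscle form, averaged 349 ± 23.0 CPM in E18.5 and 300.4 ± 24.9 CPM in E16.5 (log2 change 0.22 ± 0.14). Eno1, the widely used form, averaged 245 ± 8.04 CPM in E18.5 and 272 ± 23.7 CPM in E16.5 (log2 change -0.15 ± 0.13).

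In FPKM, Eno3 held 77.4%, 74.8% and 74.4% of the enolase level in E18.5 hearts and 74.0%, 71.8% and 74.5% in E16.5 hearts. Eno1 held 16.0%, 18.8% and 16.9% in E18.5 hearts and 20.2%, 23.5% and 20.9% in E16.5 hearts. Eno2 held 6.60%, 6.48% and 8.72% in E18.5 hearts and 5.83%, 4.73% and 4.57% in E16.5 hearts. The Eno1 share was thus smaller and the Eno2 share larger in every E18.5 library, by -4.35 and 2.22 percentage points in the mean, each at p = 0.1 in the exact permutation test and 0.3 after adjustment. Eno1 also has 4 near-identical copies, chiefly Eno1b and Gm4735, which held 36.7% to 38.6% of the summed counts. With the copies added to Eno1, its mean share was 38.8% in E18.5 and 45.6% in E16.5. The mean share of Eno3 was then 55.8% in E18.5 and 50.9% in E16.5. That of Eno2 was 5.37% in E18.5 and 3.50% in E16.5. The sizes of the shares thus depend on that choice, and the directions of the mean differences did not.

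**Figure D4:**
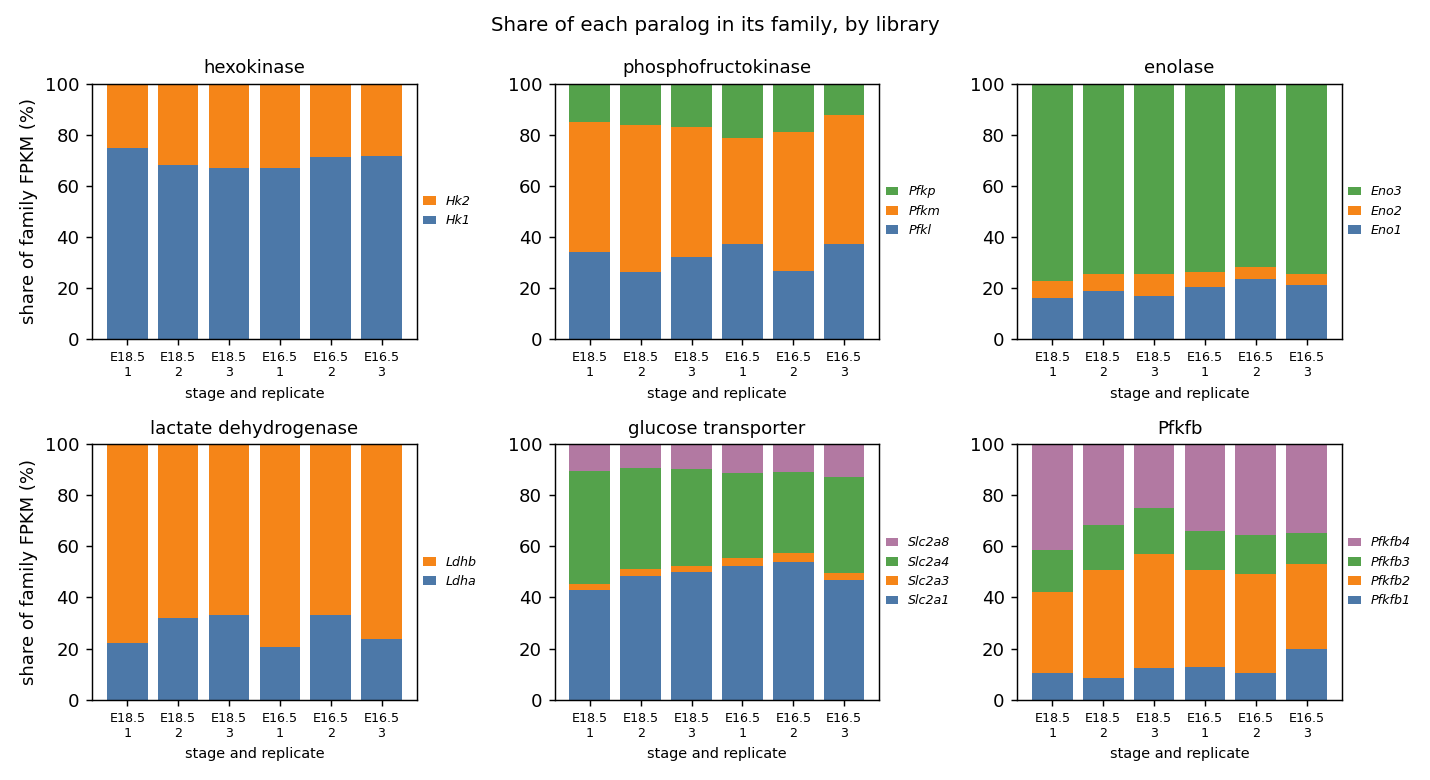
Share of each paralog in the summed FPKM of its family (percent, stacked bars) in each library, E18.5 replicates 1 to 3 on the left of each panel and E16.5 replicates 1 to 3 on the right. Slc2a4, Eno2 and Pfkfb3 have larger shares in each E18.5 bar than in any E16.5 bar, and the Ldha share is smallest in E18.5 replicate 1 and E16.5 replicates 1 and 3.

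Pkm, which makes pyruvate, averaged 524 ± 52.2 CPM in E18.5 and 459 ± 93.4 CPM in E16.5 hearts (log2 change 0.19 ± 0.18). The deposited values are per gene and do not separate its M1 and M2 splice forms. Ldhb (chr6:142490249-142507957, minus strand) had 232, 293 and 263 CPM in E18.5 hearts and 188, 290.1 and 158 CPM in E16.5 hearts. The stages overlapped, with a log2 change of 0.31 ± 0.23 (adjusted p = 0.695) that was 0.13 without E16.5 replicate 3 and 0.60 without E16.5 replicate 2. Ldhb exceeded Ldha per length in every library, by 3.50, 2.12 and 2.01 times in E18.5 and by 3.89, 2.03 and 3.19 times in E16.5. Its share of the FPKM of both was 77.8%, 68.0% and 66.8% in E18.5 and 79.6%, 67.0% and 76.1% in E16.5 (exact permutation p = 0.6). The 3 libraries above a 30% mitochondrial share had the 3 highest Ldhb shares, and the stages were mixed on both sides of that split.

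Slc16a3 (MCT4, chr11:120948480-120960868, plus strand), which exports lactate with a proton, had 73.6, 62.6 and 87.9 CPM in E18.5 hearts and 66.1, 61.7 and 49.0 CPM in E16.5 hearts. The ranges overlapped by a few CPM (log2 change 0.34 ± 0.17, adjusted p = 0.568). Ldhd, a mitochondrial D-lactate dehydrogenase, was the lowest of the 31 genes per length, at 0.40 ± 0.14 FPKM in E18.5 and 0.42 ± 0.08 FPKM in E16.5. Some of these rows overlap a gene on the opposite strand, and the labels do not say if strand entered the counting. Over the 6 libraries Znrf1 had 4824% of the counts of Ldhd, Apex2 437% of those of Pfkfb1, Csnk1d 87.0% of those of Slc16a3 and Yod1 51.7% of those of Pfkfb2. The values of these 4 genes are therefore uncertain. The overlapping gene had 20.6% of the member's counts for Pfkm, 18.3% for Pfkp, 16.5% for Pgm1 and 11.6% for Gapdh.

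Genes around the pathway gave no call. Of 94 genes in 6 further lists, 92 were in the table and 85 were tested, and edgeR called 0 in either direction, against 0.15% of all genes. At an unadjusted p under 0.05, 11 were higher (4.83% of all genes were) and 5 were lower (4.7% of all genes were). Among the regulators of glycolysis, 17 of 24 had a positive and 7 a negative change, where 49.8% of all genes were positive. At an unadjusted p under 0.05, 4 were higher and 0 lower. Mlxipl, the carbohydrate-responsive factor ChREBP, had 18.9, 18.5 and 16.0 CPM in E18.5 hearts and 10.9, 8.24 and 8.90 CPM in E16.5 hearts, without overlap (log2 change 0.93 ± 0.17, adjusted p = 0.136). Myc, Prkag2 (a subunit of the energy sensor AMPK) and Mlxip had log2 changes of 0.58, 0.55 and 0.33, with adjusted p-values of 0.330 to 0.444.

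Among 17 tested genes of glucose entry and its control, 7 changes were positive and 10 negative, where 49.8% of all genes were positive. At an unadjusted p under 0.05, 3 were higher and 2 lower, where 4.83% and 4.7% of all genes were. Txnip, which restrains glucose uptake, had 59.1, 77.7 and 73.3 CPM in E18.5 hearts and 106, 131 and 112.5 CPM in E16.5 hearts (log2 change -0.73 ± 0.15, adjusted p = 0.175). Every E18.5 library lay below every E16.5 library. The insulin receptor substrate Irs2 had a log2 change of -0.60 ± 0.17, and Vamp2 and Tbc1d1, which take part in GLUT4 vesicle traffic, had changes of 0.38 ± 0.13 and 0.47 ± 0.20. Their adjusted p-values were 0.321 to 0.510.

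For lactate and pyruvate transport, 6 of 7 changes were positive, where 49.8% of all genes were. At an unadjusted p under 0.05, where 4.83% of all genes were higher, 2 of the 7 were higher. These were the subunits of the mitochondrial pyruvate carrier, Mpc1 with 45.4, 64.7 and 52.6 CPM in E18.5 and 19.5, 46.5 and 18.03 CPM in E16.5, and Mpc2 with 59.0, 70.9 and 77.3 CPM in E18.5 and 26.4, 59.9 and 34.3 CPM in E16.5. Both overlapped between stages, because E16.5 replicate 2 was high, and their log2 changes were 0.95 ± 0.35 and 0.78 ± 0.28 (adjusted p = 0.439 and 0.431). Bsg and Slc16a1, the chaperone and the MCT1 lactate transporter, had changes of 0.29 and 0.33. In all 4 genes the libraries above a 30% mitochondrial share were the lowest.

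Of the pentose phosphate and hexosamine genes, 9 of 16 changes were positive, where 49.8% of all genes were. Gfpt2, which starts the hexosamine branch, had 14.1, 17.1 and 16.6 CPM in E18.5 hearts and 8.00, 8.56 and 9.80 CPM in E16.5 hearts, without overlap (log2 change 0.86 ± 0.16, adjusted p = 0.149). Gfpt1 had a change of 0.50, G6pdx (glucose 6-phosphate dehydrogenase) one of -0.41 and Khk (ketohexokinase) one of -0.57, with adjusted p-values of 0.477 to 0.524. Of 8 glycerol and gluconeogenic genes, 5 changes were positive. Pck2, the mitochondrial phosphoenolpyruvate carboxykinase, had 27.9, 24.5 and 24.9 CPM in E18.5 hearts and 38.0, 36.4 and 46.9 CPM in E16.5 hearts (log2 change -0.65 ± 0.14, adjusted p = 0.185). Gpd1 and Pcx had changes of 0.51 and 0.19, and Fbp1 reached at most 0.526 CPM in any library. Of 13 tested rarer isozymes, 5 changes were positive and 8 negative. Eno4, an enolase known from sperm, had 0.270, 0.185 and 0.134 CPM in E18.5 hearts and 0.399, 1.36 and 0.961 CPM in E16.5 hearts. Every E18.5 library lay below every E16.5 library at these very low levels (log2 change -2.20 ± 0.64, unadjusted p = 0.0085, edgeR adjusted p = 0.338). Pklr, the liver and red cell pyruvate kinase, had a change of -2.09 ± 1.23 at no more than 0.357 CPM in any library, and Adpgk and Galm had changes of 0.25 and 0.29.

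The summed levels of 4 of the 12 marker lists did not overlap between the stages, although edgeR called only 1 marker in them. Of all single genes tested, 8.45% were higher and 8.02% lower without overlap, and no such share was taken for sums of lists. The fibroblast list (5 of 5 genes in the table) summed to 2610 to 3436 CPM in E18.5 and 1499 to 2468 CPM in E16.5, and the smooth muscle and pericyte list (5 of 5) to 702 to 757 CPM in E18.5 and 464 to 546 CPM in E16.5. The epicardial list (5 of 5) summed to 142 to 193 CPM in E18.5 and 85.8 to 99.2 CPM in E16.5, and held the called marker, Krt19, named after its values were seen (log2 change 1.23 ± 0.14, edgeR adjusted p = 0.0219). Markers of cycling cells (5 of 5) summed to 715 to 816 CPM in E18.5 and 842 to 1215 CPM in E16.5. The part of these lists in the values of Tigar, Eno2, Slc2a4 and the other genes above was not tested. The adipocyte list, which matters for Slc2a4, stayed at or under 0.372 CPM in sum in every library.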

How the data were processed

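Whole-heart RNA was measured in 3 E18.5 and 3 E16.5 libraries. Per the labels' protocols, polyadenylated RNA was selected with oligo(dT) beads, the second cDNA strand was marked with dUTP and removed, the adapters carried unique molecular identifiers, and reads were paired-end. Per the submitters' processing notes, the tools were StringTie 1.3.4d, UMI-tools, HISAT2 2.0.4 and cutadapt 1.9, and the build mm9, with no role stated. The use of the molecular identifiers and of strand in the counting is not stated either.

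The authors deposited 1 table with an estimated count per gene and library, written as whole numbers, and an FPKM value (fragments per kilobase, scaled to library size by the authors). Such estimates can divide reads among near-identical genes. All 31529 genes entered, and no row lacked a gene name.

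Stages were compared with edgeR 4.0.16 (R 4.3.3) on the estimated counts, which needed no rounding: filterByExpr, TMM scaling, stage as the only term, the two-sided quasi-likelihood test and Benjamini-Hochberg adjustment over 19959 genes, with an adjusted p under 0.05 called a change. The common biological coefficient of variation was 34.3%. Each standard error was obtained as the size of the log2 change over the root of its F statistic. The fit was tested on simulated counts. Levels between genes and paralog shares used FPKM, and 18 shares in 8 families were compared with the exact permutation test (SciPy 1.17.1), whose smallest p is 0.1.

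Copies were found with blastn 2.17.0 by coding sequence (at least 95% identity over at least 200 bases) among GENCODE M21 transcripts. Positions are those of GENCODE M21 on GRCm38, matched by Ensembl identifier for 31 of 31 genes. Of 29874 matched identifiers in the table, 574 had the same coordinates there, so deposited coordinates, whose build could not be checked here, are not printed. Promoters are from RefSeq on GRCm38.p6.

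The 31 genes and the lists around them were chosen with earlier results of these data known. All 31 are named, with copies of at least 1 FPKM or over 1% of the gene's counts as sums and the chief ones by name, and up to 4 genes of each further list by smallest p. In total 15 alternatives were run: DESeq2 1.42.0, limma 3.58.1 on log2(FPKM + 1) and log2(FPKM + 0.1), median-of-ratios (RLE) scaling, no filter, mitochondrial genes left out, the mitochondrial share as a term, a replicate block, copies summed, and each library left out. Libraries of a stage differed by more than sampling noise, so none was taken for a repeat deposit of another, which does not show that they are independent samples.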

Additional observations from a re-analysis of the deposited data

How the results depend on the processing

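The 0 of 31 genes called by edgeR became 1 with DESeq2 (Tigar) and stayed 0 in the other 14 settings. Over all genes, the 30 called became 403 with DESeq2 (3104 genes without an adjusted p), 10 and 18 with limma on log2(FPKM + 1) and log2(FPKM + 0.1), and 184 with the mitochondrial share as a term. Without E18.5 replicates 1, 2 and 3 they were 13, 10 and 12, and without E16.5 replicates 1, 2 and 3 they were 16, 371 and 8. The 3 of the 31 genes at an unadjusted p under 0.05 became 7 with the mitochondrial term, where 14.7% of all genes were at that threshold. With a library left out they became 2 to 13, where 5.57% to 23.4% of all genes were, the highest of both being the fit without E16.5 replicate 2. The median log2 change of the 31 genes, 0.19, was 0.29 and 0.31 with limma, where the median of all genes moved to 0.05 and 0.10, and 0.071 to 0.24 with a library left out.

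Of the log2 changes of the 31 genes under the alternatives, 438 kept their sign and their side of the threshold, 26 turned sign with no call, and 1 (Tigar with DESeq2) passed the threshold. Slc2a1 had 0.079 and 0.082 with limma and 0.0029 with the mitochondrial term, Pfkl had 0.069, 0.072 and 0.061 in the same settings, and Pfkp had 0.10 and 0.11 with limma and 0.0053 with the replicate block. Gapdh had 0.073 with its copies summed. With a library left out, the ranges were -0.12 to 0.075 for Slc2a1, -0.17 to 0.085 for Pfkl, -0.29 to 0.15 for Pfkp, -0.12 to 0.18 for Pfkfb4, -0.10 to 0.26 for Aldoc, -0.056 to 0.89 for Tpi1, -0.10 to 1.10 for Pgk1, -0.088 to 0.66 for Pgam1 and -0.46 to 0.011 for Ldhd. With the sign kept they were 0.20 to 1.19 for Ldha, 0.13 to 0.60 for Ldhb and -0.64 to -0.067 for Gapdh. Shares whose difference turned sign ran from -2.52 to 1.35 percentage points for Hk1, -3.93 to 0.66 for Pfkp, -6.48 to 1.58 for Pfkfb4 and -2.84 to 3.52 for Pgam1. The cause was not tested.

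Libraries with the same replicate number correlated at 0.28, 0.37 and -0.08 in their deviations from the stage means, so the numbers were not taken to pair them. With the replicate block, 43 genes and 0 of the 31 were called, and 4 of the 31 had an unadjusted p under 0.05, as had 12.8% of all genes. The sign-flip test of 3 pairs cannot go below 0.25. With 3 libraries per stage the median standard error of the 31 log2 changes was 0.18, which limits the size of change that could be seen.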
